A study of Mus musculus with 24 samples.

Results

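The genes described here are 43 genes of the unfolded protein response and the integrated stress response. They were chosen by name from these pathways, with earlier results of these data known, so the choice is not independent of the data. All 43 were found among the 18205 genes of the deposited table, and all 43 passed the filter on low values, a normalised read count of at least 10 in at least 3 of 24 libraries. They were grouped by role into an ATF4 arm of 26 genes, 4 sensors of the endoplasmic reticulum (ER), and a chaperone arm of 13 genes. The ATF4 arm holds 11 transcription factors and regulators around ATF4, 6 genes of serine, one-carbon and asparagine synthesis, 4 amino acid transporter genes and 5 aminoacyl-tRNA synthetase genes. The chaperone arm holds 9 ER chaperone and folding genes and 4 genes of ER-associated degradation.

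In the integrated stress response, kinases that sense a shortage of amino acids, ER stress or other strain phosphorylate the translation factor eIF2 alpha, which slows protein synthesis and lets the mRNA of the transcription factor ATF4 be translated. ATF4 then switches on genes that import amino acids, make serine and asparagine and charge tRNAs, and one of its partners, DDIT3 (CHOP), is known for its part in stress-induced cell death. The unfolded protein response shares this branch through the kinase PERK (Eif2ak3), and adds the ER proteins IRE1 (Ern1), which splices Xbp1 mRNA, and ATF6, which is cut to release a transcription factor. XBP1 and ATF6 are known to raise ER chaperones and the machinery that removes misfolded proteins, a load that secretory tissues such as endoderm carry.

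The measurements are polyA RNA sequencing of mouse OTX2-dTAG-EGFP cells, genotype BL6/129 hybrid, in which dTAG13, a degrader, removes the tagged homeobox factor OTX2, against the vehicle DMSO. Cells were taken as epiblast stem cells (EPI), at the primitive streak stage (PS), and as definitive endoderm after a further 24 h (DE1) or 48 h (DE2). All were harvested after 21 h of dTAG13 or DMSO, per the labels, which give EPI, PS and DE1 as the points of addition and do not state which addition belongs to which harvest. Every group holds 3 libraries, which come from 3 lines named 7H, 7H1 and 7H2, and the purpose stated for the design was to find OTX2-dependent genes at each stage. All groups, the DMSO ones included, carry the tagged OTX2. EPI cells grew in N2B27 medium with 20 ng/ml activin A, 12.5 ng/ml FGF2 and 175 nM NVP. PS cells had 16 h in CDM medium with 40 ng/ml activin A and 3 µM CHIR, a WNT pathway activator. DE1 and DE2 cells then had 100 ng/ml activin A and 100 nM of the BMP receptor inhibitor LDN. The change of medium therefore coincides with the step from EPI to PS, and a change of added factors with the step from PS to DE1. Culture conditions and stage cannot be told apart in either step, nor in DE2 over EPI. As 21 h is also longer than the PS induction, the stages that each exposure spanned are not settled by the labels. The sources used here do not say whether the 3 lines share an origin, and p-values measure the spread between these lines.

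Values are the authors' normalised read counts, which summed to 24.42 to 27.25 M per library with 15260 to 16536 genes above 0. The Otx2 transcript (chromosome 14, 48657677 to 48673819) stood at 2352, 2302 and 2949 with dTAG13, against 1693, 1476 and 1817 with DMSO in EPI. In PS it spanned 1708 to 3268 with dTAG13, against 2342 to 3699 with DMSO, in DE1 12024 to 13790.0 against 8656 to 10972, and in DE2 10553 to 13640.2 against 8625 to 12385. It was not called at any stage without the line term, and with the line as a block it was called at each, with log2 fold changes of 0.60, -0.34, 0.41 and 0.30. It does not check the depletion, because the degrader works on the tagged protein, and an antisense gene overlaps it. In DMSO all 6 primitive streak markers rose in PS over EPI, and 7 of 8 definitive endoderm markers rose in DE1 over PS. The mean level of the ATF4 arm had its largest SD within a group in DE2 with dTAG13 (0.43 on the log2 scale), and that of the chaperone arm in DE2 with DMSO (0.37). Line 7H was the highest of the 3 lines in both, and the counts without it are given beside the results that use DE2. In bulk RNA, fewer cells of a kind and less RNA per cell cannot be told apart.

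Changes are log2 fold changes of the value plus 1, tested with limma across 15037 genes, and a gene is called where its Benjamini-Hochberg adjusted p is under 0.05. Shares of all genes called are from the fit of all lines without the line term. They are no base rate for counts with the line as a block or with lines left out. Sample values are given for lines 7H, 7H1 and 7H2 in that order, and means carry ± SD with n = 3.

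The DMSO libraries were compared between successive stages first, to place the stress genes in the conversion itself. In PS over EPI most of the ATF4 arm fell while most of the chaperone arm was not called. Of 26 ATF4 arm genes 22 fell and 0 rose, of 13 chaperone arm genes 3 rose and 1 fell, and none of the 4 sensors was called, although 2 had an unadjusted p under 0.05. These were Eif2ak3 and Atf6, which were called as falls with the cell line as a block (log2 fold changes -0.36 and -0.37, adjusted p = 0.0481 and 0.0478) and with values rescaled to equal totals. In this step 27.5% of all genes were called, 14.6% upward and 12.8% downward, and 5785 of 15037 had an unadjusted p under 0.05. The median log2 fold change was -0.66 over the 43 genes and -0.01 over all genes. The 6 serine, one-carbon and asparagine genes and the 4 transporters all fell, with medians of -1.34 and -1.43.

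The largest fall was that of Chac1 (chromosome 2, 119351229 to 119354381), an enzyme that breaks down glutathione. Chac1 stood at 271, 585 and 299.7 in PS, against 2187, 2055 and 2335 in EPI (log2 fold change -2.59, SE 0.40, adjusted p = 9.07e-05). Every PS library lay below every EPI library. Trib3 (chromosome 2, 152337422 to 152344032), a pseudokinase that feeds back on ATF4, stood at 509, 706 and 504 in PS, against 2848, 2173 and 2873 in EPI (log2 fold change -2.20, SE 0.29, adjusted p = 1.26e-05). The stress-induced chromatin protein gene Nupr1 (chromosome 7, 126623249 to 126630861) stood at 20.4, 19.9 and 18.3 in PS, against 132, 62.8 and 65.2 in EPI (log2 fold change -2.01, SE 0.46, adjusted p = 0.00295). In both genes every PS value again lay below every EPI value. Slc7a5 (chromosome 8, 121881150 to 121907694), the light chain of a leucine transporter, stood at 6915, 8458 and 6586 in PS, against 31788, 19735 and 32489 in EPI (log2 fold change -1.91, SE 0.21, adjusted p = 1.67e-06). Asns (chromosome 6, 7675169 to 7693254), asparagine synthetase, stood at 4343, 4851 and 4678 in PS, against 20095, 10944 and 16624 in EPI (log2 fold change -1.74, SE 0.21, adjusted p = 4.96e-06). Both were lower in PS in every line, and both were lowest in EPI in line 7H1.

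Atf4 itself fell to 7429.8 ± 726 in PS, against 11764 ± 1345 in EPI (log2 fold change -0.66, SE 0.13, adjusted p = 0.000638). The ATF4 arm genes that were not called were Atf5, Ddit3, Ppp1r15a and Wars, with log2 fold changes of -0.71, -0.60, 0.19 and -0.15. Ppp1r15a encodes the phosphatase subunit that reverses eIF2 alpha phosphorylation, and Wars the tryptophanyl-tRNA synthetase. In the chaperone arm the calcium-binding lectin chaperone gene Calr rose to 19259 ± 1616 in PS, against 12096 ± 809.6 in EPI (log2 fold change 0.67, SE 0.17, adjusted p = 0.00557). Edem1, which hands misfolded glycoproteins to degradation, and Syvn1, the ubiquitin ligase HRD1, also rose (log2 fold changes 0.55 and 0.59). Herpud1, a scaffold of the same degradation complex, was the chaperone arm gene that fell (log2 fold change -0.75). Without line 7H2, 15 genes were called, all of them falls in the ATF4 arm, against 26 with all 3 lines.

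In DE1 over PS several ER genes rose. Of the 13 chaperone arm genes 5 rose and 0 fell, and of the 4 sensors 3 rose and 1 fell, while the ATF4 arm split with 4 rises and 5 falls. In this step 44.1% of all genes were called, 21.7% upward and 22.4% downward. Of the 43 genes 18 were called (41.9%), with 38.5% of the chaperone arm and 34.6% of the ATF4 arm, each below the share of all genes. Xbp1 (chromosome 11, 5520659 to 5525893) stood at 1953, 2003 and 1985 in DE1, against 961, 1057 and 1169.5 in PS (log2 fold change 0.90, SE 0.11, adjusted p = 1.99e-06), and the groups did not overlap. Eif2ak3 and Atf6 rose with log2 fold changes of 0.65 and 0.45, and Ern1 fell by 0.62 on the log2 scale. The largest rise in the chaperone arm was that of Sdf2l1, a partner of the ER DNAJ proteins, to 1414 ± 21.3 in DE1, against 681 ± 141 in PS (log2 fold change 1.07, SE 0.23, adjusted p = 0.000618). Hsp90b1 (the chaperone GRP94), Dnajb9, Manf and Herpud1 rose as well, by 0.58, 0.47, 0.45 and 0.52 on the log2 scale.

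In the ATF4 arm Vldlr, a lipoprotein receptor gene that ATF4 is known to induce, rose most, to 3369.7 ± 255 in DE1, against 979 ± 193 in PS (log2 fold change 1.80, SE 0.28, adjusted p = 3.51e-05). Atf5, Asns and Sars rose too (log2 fold changes 0.72, 0.54 and 0.51). Atf3, an early stress-induced factor, fell to 100.0 ± 39.1 in DE1, against 219 ± 68.2 in PS (log2 fold change -1.13, SE 0.41, adjusted p = 0.0297), and Sesn2, Mthfd2, Wars and Aars were the other falls. Without line 7H1 the count called was 11 and without line 7H2 it was 7, and the rises in the chaperone arm numbered 2 and 1. Quantile normalization also left 2 of the 5.

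In DE2 over DE1 6 genes of the chaperone arm fell. None of the 13 genes of that arm rose, and of the 4 sensors Eif2ak3 and Xbp1 fell, while 39.3% of all genes were called, 20.2% upward and 19.1% downward. The fallen chaperone genes were Hspa5 (BiP, the main ER HSP70), Hsp90b1, Sdf2l1, the disulfide isomerases Pdia4 and Pdia6, and Manf, with log2 fold changes of -0.70, -0.73, -1.03, -0.94, -1.01 and -0.59. Hspa5 (chromosome 2, 34771970 to 34777547) stood at 23925, 13469 and 15455 in DE2, against 27074, 26326 and 29868 in DE1 (log2 fold change -0.70, SE 0.15, adjusted p = 0.00108). The 7H library of DE2 lay nearer to DE1 than those of 7H1 and 7H2. The mean log2 level of the chaperone arm, relative to EPI with DMSO, was 0.50 in that library, and -0.18 and -0.08 in those of 7H1 and 7H2.

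The ATF4 arm moved both ways in this step, with 5 rises and 7 falls. Its largest falls were in serine and one-carbon metabolism. Psph, the last enzyme of serine synthesis, stood at 517, 429 and 484 in DE2, against 1601, 1422 and 1100.4 in DE1 (log2 fold change -1.51, SE 0.24, adjusted p = 4.44e-05). Psat1 and the mitochondrial serine hydroxymethyltransferase Shmt2 fell by 1.45 and 1.32 on the log2 scale. The rises were Atf3, Nupr1, Slc7a1 (a cationic amino acid transporter), Atf5 and Ppp1r15a, with log2 fold changes of 1.95, 1.21, 1.18, 0.81 and 0.62. Without line 7H 18 genes were called, without 7H1 14 and without 7H2 10, against 20 with all lines. The falls in the chaperone arm then numbered 7, 3 and 4, against 6, and without 7H2 no sensor was called.

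Over the whole course, DE2 against EPI in DMSO, 25 of the 43 genes fell and 7 rose, while 53.9% of all genes were called, 27.4% upward and 26.6% downward. The ATF4 arm accounted for 21 falls and 2 rises, those of Atf5 and Ppp1r15a. The chaperone arm had 3 falls and 4 rises, counts that moved with the lines, with 4 falls and 1 rise without 7H, and 0 falls and 3 rises without 7H1 or without 7H2. Of the sensors 1 rose and 1 fell, and without any one line the fall was not called. Psat1 had the largest fall, at 3205 ± 1031 in DE2, against 28910.0 ± 2614 in EPI (log2 fold change -3.23, SE 0.23, adjusted p = 2.79e-10), followed by Chac1 (log2 fold change -3.15).

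**Figure D1:**
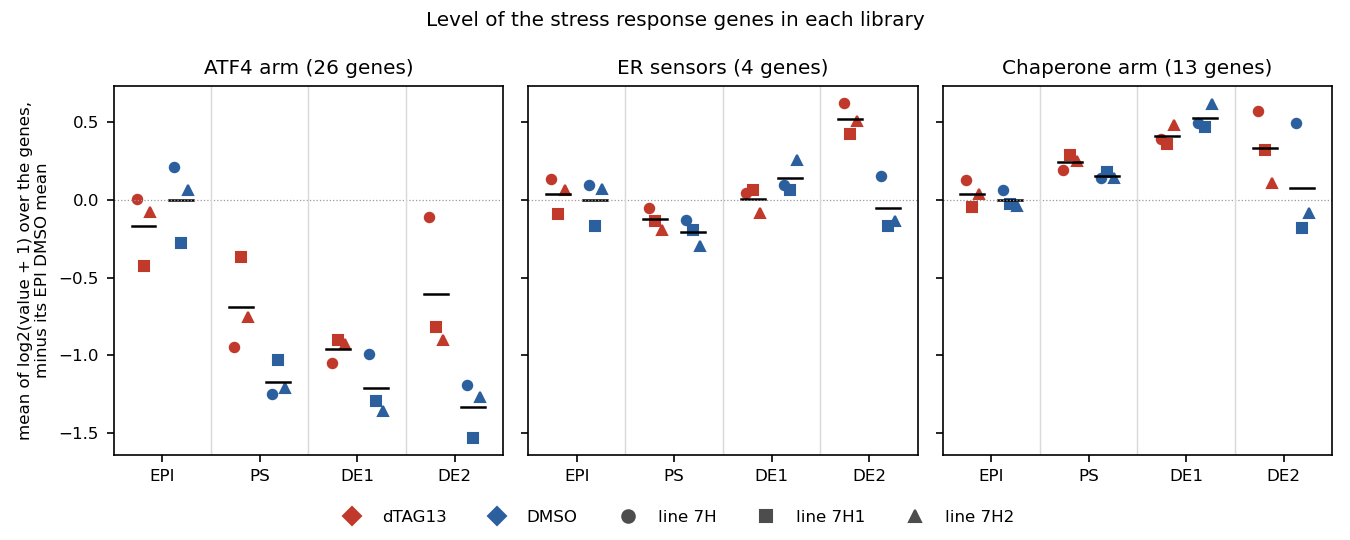
Mean log2 level of the genes of each arm (y axis, log2 difference from the EPI mean with DMSO) in every library of EPI, PS, DE1 and DE2, with dTAG13 left of DMSO; points are the lines 7H, 7H1 and 7H2, and the bar is their mean, n = 3. The ATF4 arm with DMSO lies at -1.17 ± 0.12 in PS and -1.33 ± 0.18 in DE2, and the dTAG13 libraries of DE2 lie higher at -0.61 ± 0.43.

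**Figure D2:**
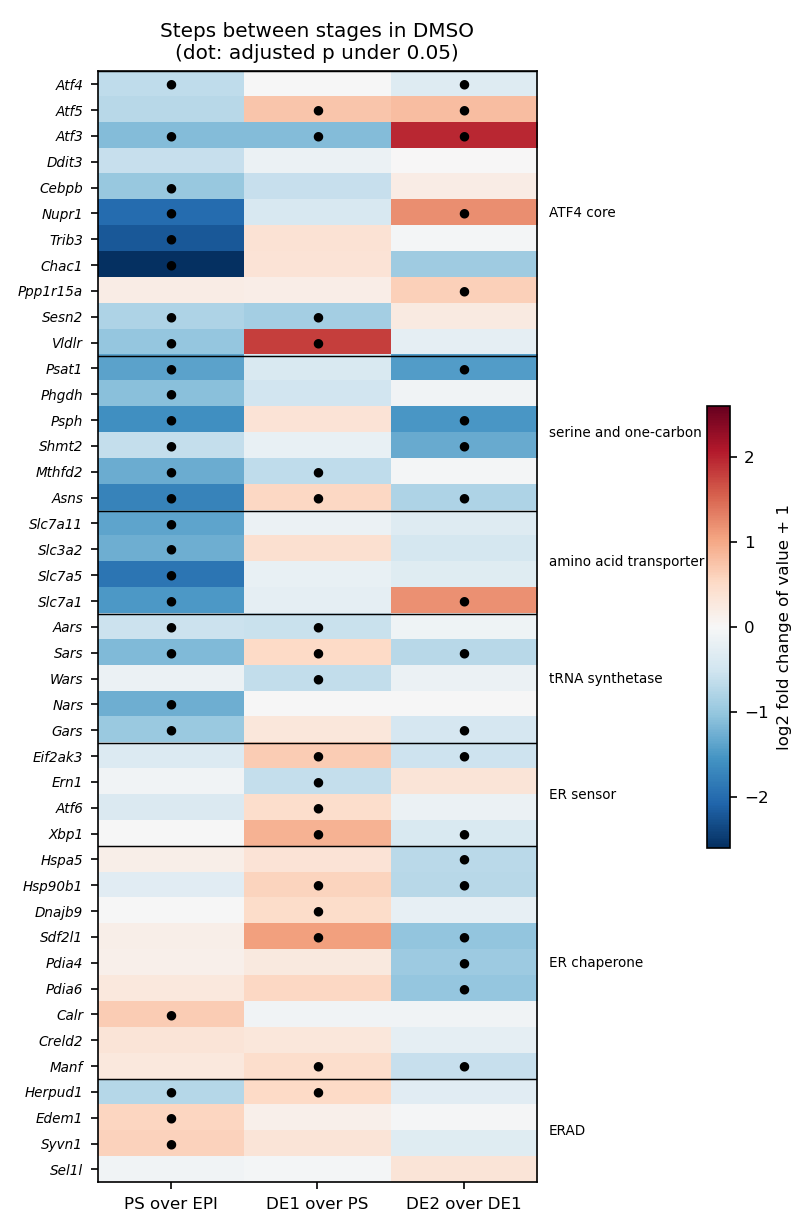
Log2 fold changes of the 43 genes (rows, grouped by role) in the stage comparisons with DMSO (columns), with dots on genes called at an adjusted p under 0.05 in limma. The column of PS over EPI is blue through most of the ATF4 arm, with 22 of 26 genes called, and pale in the chaperone arm.

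The promoters of the genes were then searched for known binding motifs of these arms, as a description. The genes were chosen from pathways known to act through these motifs, so the shares found are no support for the expression results. RefSeq promoter windows of GRCm38.p6, 250 bases before to 50 after a start, were matched for 38 of the 43 genes. Slc7a5, Wars, Nars, Atf6 and Manf were not matched. The C/EBP-ATF response element that ATF4 binds, searched as TGATGNAAN on both strands, was found in 10 of 38 genes (26.3%), against 4.5% of 27025 genes with a promoter. Of these, 9 were among the 23 matched ATF4 arm genes and 1, Herpud1, among the 12 matched chaperone arm genes. The ER stress response element that ATF6 and XBP1 act through, searched as CCAAT and CCACG with 9 bases between them on both strands, was found in 6 of 38 genes (15.8%), against 0.137% of all genes. All 6 were in the chaperone arm (Calr, Creld2, Hsp90b1, Hspa5, Pdia6 and Syvn1) and 0 of 23 in the ATF4 arm. A shorter variant, ATTGG and CCACG with 1 base between them, was in Herpud1 and in 0.0444% of all genes. The variant holds the parts of the longer element, with CCAAT turned round, and the C/EBP-ATF element shares no part with either. A match is a description of the window, and no match says only that these letters are absent from it. The stretches around the matches are shown for genes whose values the results turn on, read 5′ to 3′ along the gene's strand with the match in capitals. In Trib3 the match lies after the start, and it is not printed.
Chac1 (chr2:119351023-119351081, plus strand): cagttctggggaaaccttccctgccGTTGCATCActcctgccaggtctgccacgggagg
Nupr1 (chr7:126625548-126625606, minus strand): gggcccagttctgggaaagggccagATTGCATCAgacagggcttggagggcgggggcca
Asns (chr6:7693210-7693257, minus strand): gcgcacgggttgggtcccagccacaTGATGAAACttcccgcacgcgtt
Aars (chr8:111033704-111033762, plus strand): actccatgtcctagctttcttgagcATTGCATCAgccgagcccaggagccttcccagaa
Gars (chr6:55037945-55038000, plus strand): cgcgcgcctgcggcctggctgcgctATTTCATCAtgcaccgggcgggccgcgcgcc
Vldlr (chr19:27216794-27216852, plus strand): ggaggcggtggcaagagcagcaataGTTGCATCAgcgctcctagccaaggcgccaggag
GTTGCATCA stands in Chac1, Vldlr and Herpud1 and ATTGCATCA in Nupr1 and Aars, all in reverse orientation to the motif as spelled. The chaperone genes below carry the longer ER stress element, and Herpud1 carries a match to each arm's motif, the C/EBP-ATF element first and the shorter ER stress element second.
Hspa5 (chr2:34772000-34772068, plus strand): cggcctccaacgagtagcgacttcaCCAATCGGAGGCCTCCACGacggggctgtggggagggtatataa
Hsp90b1 (chr10:86705508-86705576, minus strand): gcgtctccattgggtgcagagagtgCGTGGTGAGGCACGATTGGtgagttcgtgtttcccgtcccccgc
Calr (chr8:84847050-84847118, minus strand): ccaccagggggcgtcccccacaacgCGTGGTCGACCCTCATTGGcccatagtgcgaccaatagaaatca
Syvn1 (chr19:6046507-6046575, plus strand): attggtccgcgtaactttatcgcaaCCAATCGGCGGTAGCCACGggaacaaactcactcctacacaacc
Herpud1 (chr8:94386291-94386349, plus strand): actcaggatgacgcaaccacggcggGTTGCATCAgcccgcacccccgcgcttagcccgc
Herpud1 (chr8:94386352-94386412, plus strand): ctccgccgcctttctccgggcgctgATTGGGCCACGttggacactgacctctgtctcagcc

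The depletion of OTX2 was compared with vehicle at each stage. In EPI no member was called in either direction, by limma without the line term or with the cell line as a block. An unadjusted p under 0.05 was reached by 2 of 43, against 534 of all 15037 genes. Of all genes 0.0865% were called, 0% upward and 0.0865% downward. The 43 genes had a median log2 fold change of -0.07, and 21 were lower in all 3 lines, against 19.3% of all genes. Of those 21 genes 19 were in the ATF4 arm. Nars, the asparaginyl-tRNA synthetase, had the largest difference, at 3726, 1489.8 and 2856 with dTAG13 and 4906, 3801 and 3469.5 with DMSO, and the groups overlapped (log2 fold change -0.68, SE 0.28, adjusted p = 1).

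In PS the median log2 fold change of the 43 genes was 0.22, above 0 where that in EPI was below it. No member was called by limma without the line term, with 0.219% of all genes called, 0.0865% upward and 0.133% downward. An unadjusted p under 0.05 was reached by 12 of 43, against 1197 of all 15037 genes. With dTAG13, 27 of the 43 were higher in all 3 lines, against 17.8% of all genes. In 15 of them no dTAG13 value overlapped with DMSO, against 6.77% of all genes. Those 15 were 12 genes of the ATF4 arm, 1 sensor and 2 genes of the chaperone arm. Chac1 stood at 677, 1495 and 859 with dTAG13, against 271, 585 and 299.7 with DMSO (log2 fold change 1.40, SE 0.40, adjusted p = 0.214). Trib3 stood at 1019, 1839 and 1146 with dTAG13, against 509, 706 and 504 with DMSO (log2 fold change 1.19, SE 0.29, adjusted p = 0.107). Slc7a1 stood at 2396, 3967 and 2526 with dTAG13, against 1507, 1993 and 1147 with DMSO (log2 fold change 0.93, SE 0.22, adjusted p = 0.103). Line 7H1 was the highest with dTAG13 in each of the 3 genes, and in none did the groups overlap.

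With the cell line as a block, 6 genes were called in PS, all higher with dTAG13. The share of all genes called with the block is not given here, so the 6 stand without a base rate. They were Cebpb, Trib3, Chac1, Sesn2 and Slc7a1 of the ATF4 arm and Herpud1 of the chaperone arm, at adjusted p = 0.0382, 0.0178, 0.0444, 0.0108, 0.0123 and 0.0258. Cebpb encodes a C/EBP partner of ATF4, and Sesn2 a leucine sensor that restrains mTORC1. The mean level of the ATF4 arm, relative to EPI with DMSO, was -0.69 ± 0.30 with dTAG13 and -1.17 ± 0.12 with DMSO on the log2 scale.

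In DE1 a single member was called. Vldlr (chromosome 19, 27216484 to 27254231) stood at 7496, 7711 and 7459 with dTAG13, against 3642, 3136 and 3331 with DMSO (log2 fold change 1.17, SE 0.28, adjusted p = 0.0121). All dTAG13 values were more than any DMSO value. Of all genes 7.76% were called, 3.74% upward and 4.02% downward. An unadjusted p under 0.05 was reached by 7 of the 43, a smaller share than the 2977 of all 15037 genes. Nupr1 stood at 31.5, 48.1 and 40.9 with dTAG13, against 23.2, 8.80 and 14.5 with DMSO, and was not called without the line term (log2 fold change 1.40, SE 0.46, adjusted p = 0.0727). Of the 26 ATF4 arm genes 10 were higher in all 3 lines and 0 lower. In the chaperone arm 8 of 13 were lower in all 3 lines and 2 higher. Of all genes 24.5% were higher in all 3 lines, and as large a share was lower.

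With the line as a block 9 genes were called in DE1, with no base rate, as the share of all genes called with the block is not given here. Atf5, Cebpb, Nupr1, Vldlr, Shmt2 and Asns were higher with dTAG13, and Eif2ak3, Atf6 and Edem1 were lower. The values of Atf6 were 999.8, 1030.0 and 913 with dTAG13, against 1132, 1245 and 1357 with DMSO (log2 fold change -0.34, SE 0.15, adjusted p = 0.215, 0.014 with the block). Those of Edem1 were 2008, 2035 and 2028 with dTAG13, against 2403, 2531 and 2716 with DMSO (log2 fold change -0.33, SE 0.12, adjusted p = 0.0865, 0.0271 with the block). In both genes the dTAG13 libraries lay below all those with DMSO. Without line 7H1 the count of called members was 0, and without line 7H it was 2, Cebpb and Edem1.

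In DE2 members of both arms and 3 of the 4 sensors rose with dTAG13. Of the 43 genes 20 rose and 0 fell, while 17% of all genes were called, 8.65% upward and 8.31% downward. The rises were 14 of 26 genes of the ATF4 arm, 3 of 4 sensors and 3 of 13 genes of the chaperone arm. The median log2 fold change was 0.50 over the 43 genes and -0.00368 over all genes. By line, 32 genes were higher with dTAG13 in all 3 lines, against 26.6% of all genes, and 21 did not overlap with DMSO, against 16.3%. The 32 were 21 in the ATF4 arm, 4 sensors and 7 in the chaperone arm. Of the 21 without overlap, 17 were in the ATF4 arm, 4 were sensors and 0 were in the chaperone arm. With the line as a block 32 rose, 21 in the ATF4 arm, all 4 sensors and 7 in the chaperone arm. The share of all genes called with the block is not given here, and the 17% above is from the fit without it.

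Among the transcription factors and regulators, Nupr1 rose most. Nupr1 stood at 331, 108 and 333 with dTAG13, against 51.6, 23.1 and 35.1 with DMSO (log2 fold change 2.68, SE 0.46, adjusted p = 0.000292). Chac1 stood at 1793, 633 and 538 with dTAG13, against 275, 143 and 379.6 with DMSO (log2 fold change 1.78, SE 0.40, adjusted p = 0.00371). In neither gene did the groups overlap. For Chac1 the 7H library with dTAG13 was close to EPI levels, and those of 7H1 and 7H2 were lower. Ddit3 (chromosome 10, 127290774 to 127296288) stood at 844, 362 and 431 with dTAG13, against 238, 172 and 231 with DMSO (log2 fold change 1.26, SE 0.36, adjusted p = 0.02). Atf4 (chromosome 15, 80255184 to 80257541) stood at 8809, 8116 and 6615 with dTAG13, against 5777, 5890.1 and 5953 with DMSO (log2 fold change 0.41, SE 0.13, adjusted p = 0.0305). The DMSO values of Atf4 spanned a narrow range and the dTAG13 value nearest to them was that of 7H2. Trib3 and Cebpb rose by 0.98 and 0.74 on the log2 scale (adjusted p = 0.0228 and 0.0434). Atf3 was at 1342, 628 and 598 with dTAG13, against 436, 296 and 399 with DMSO, with no overlap, and was not called (log2 fold change 1.10, SE 0.41, adjusted p = 0.0734, 0.0127 with the block).

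Of the 6 genes of serine, one-carbon and asparagine synthesis 4 rose. Asns stood at 7809.5, 6070.4 and 5351 with dTAG13, against 4279, 3529.8 and 3755 with DMSO (log2 fold change 0.72, SE 0.21, adjusted p = 0.0222), with no overlap. Psat1, Mthfd2 (a mitochondrial folate enzyme) and Shmt2 rose by 0.80, 0.75 and 0.59 on the log2 scale. Psph and Phgdh were not called. Psph was at 969.9, 514 and 541 with dTAG13, against 517, 429 and 484 with DMSO, higher in each line but with overlap (log2 fold change 0.44, SE 0.24, adjusted p = 0.233). Phgdh, the first enzyme of serine synthesis, was at 5449, 3759.7 and 3581 with dTAG13, against 4856, 3812 and 4784 with DMSO (log2 fold change -0.09, SE 0.21, adjusted p = 0.829), and its groups overlapped. Of the 4 transporter genes 1 rose, Slc7a5, at 11985, 9429 and 7407 with dTAG13, against 5424, 4383 and 5656 with DMSO (log2 fold change 0.88, SE 0.21, adjusted p = 0.00575). Its partner, the heavy chain gene Slc3a2, had a log2 fold change of 0.32 at adjusted p = 0.287. Of the 5 tRNA synthetase genes 3 rose, Aars, Wars and Gars, for alanine, tryptophan and glycine, each by 0.60 on the log2 scale.

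Wars (chromosome 12, 108860030 to 108894174) stood at 4351, 3492 and 3288 with dTAG13, against 2551, 2316 and 2403 with DMSO (log2 fold change 0.60, SE 0.13, adjusted p = 0.00176). Among the sensors, Atf6 (chromosome 1, 170704674 to 170867771) stood at 2379, 1869 and 1805 with dTAG13, against 1281, 1067 and 1008 with DMSO (log2 fold change 0.85, SE 0.15, adjusted p = 0.000476). All 3 lines were higher, with log2 fold changes of 0.89, 0.81 and 0.84. Ern1 and Xbp1 rose by 0.54 and 0.50 on the log2 scale (adjusted p = 0.0127 and 0.00403). These are gene-level values, so spliced and unspliced Xbp1 mRNA were not separated. Eif2ak3 was at 738, 778 and 929 with dTAG13, against 686, 573 and 599.9 with DMSO, and was not called (log2 fold change 0.39, SE 0.15, adjusted p = 0.0813, 0.0276 with the block).

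In the chaperone arm Hspa5, Hsp90b1 and Pdia4 rose. Hspa5 stood at 27968, 25241 and 20036 with dTAG13, against 23925, 13469 and 15455 with DMSO (log2 fold change 0.50, SE 0.15, adjusted p = 0.027). Hsp90b1 (chromosome 10, 86690209 to 86705509) stood at 29776, 26679 and 20219 with dTAG13, against 22809, 13307 and 14809.7 with DMSO (log2 fold change 0.61, SE 0.18, adjusted p = 0.0199). Pdia4 stood at 5976, 5224 and 3998 with dTAG13, against 4798, 2599 and 3117 with DMSO (log2 fold change 0.56, SE 0.15, adjusted p = 0.0142). The groups overlapped in these genes, as the 7H library with DMSO lay above a dTAG13 library of another line, and each line alone was higher with dTAG13. None of the 4 degradation genes was called, with log2 fold changes of 0.37 for Herpud1, 0.05 for Edem1, -0.06 for Syvn1 and -0.02 for Sel1l.

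The DE2 count moved with the lines and libraries in the fit. Without line 7H 10 genes were called, without 7H1 7, and without 7H2 11, all higher with dTAG13. Nupr1, Wars and Atf6 were called in each of these 3 settings. Leaving out the 7H library with dTAG13 alone gave 8 and leaving out the 7H1 library with DMSO alone gave 8, against 20. These fits hold fewer libraries, and the share of all genes called in them is not given here. Whether the members lost more calls than other genes was not tested. Without line 7H the chaperone arm held 5 calls and the ATF4 arm 3, without line 7H1 they held 0 and 6, and without line 7H2 1 and 9. Fitted on the DE2 libraries alone, limma called 7 genes in the ATF4 arm, 1 sensor and none in the chaperone arm.

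**Figure D3:**
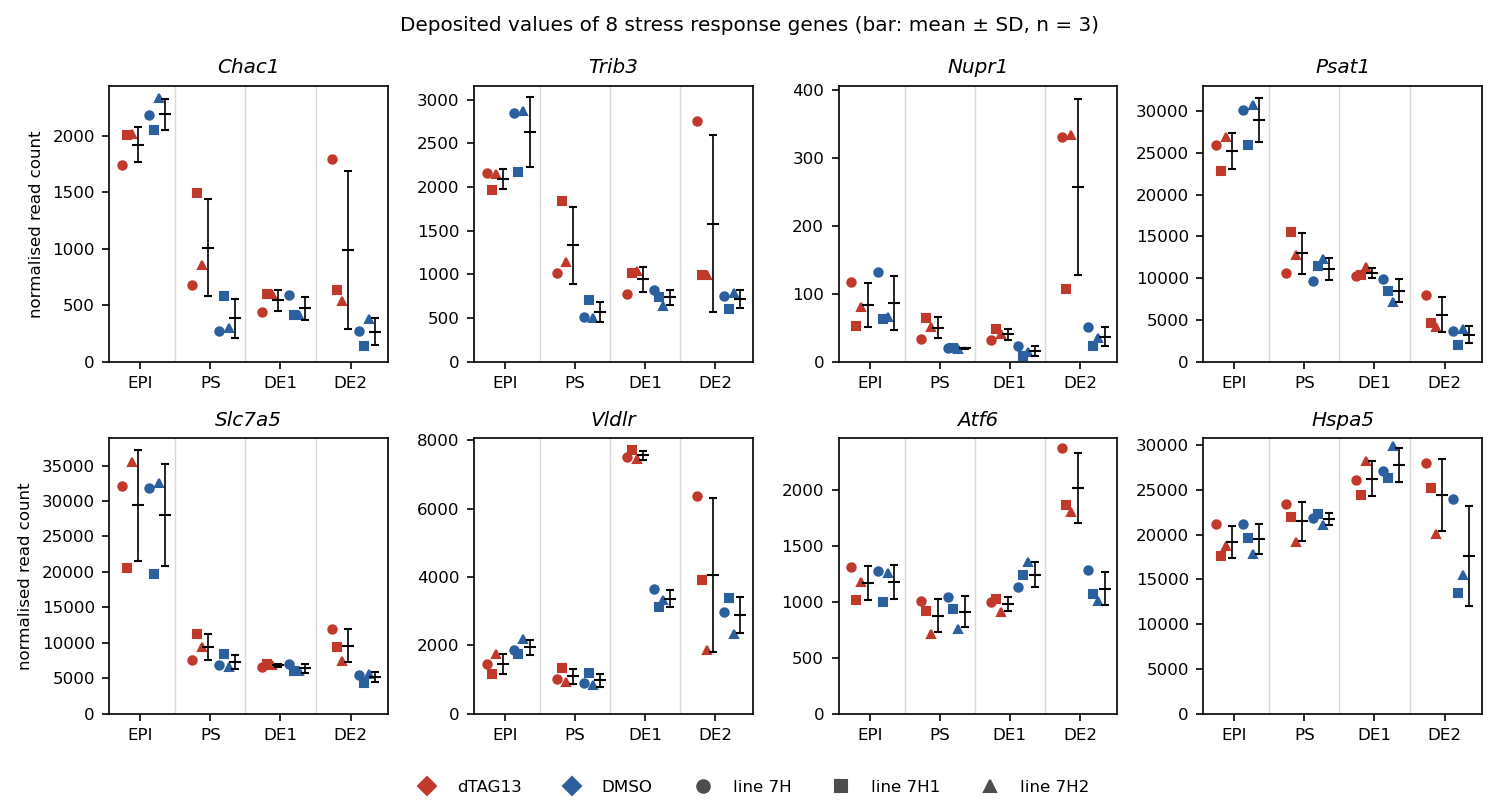
Normalised read counts (y axes, linear, each from 0) of 8 genes in every library, by stage, with dTAG13 left of DMSO and a symbol for each line; the bar beside the points is the mean ± SD, n = 3. Chac1 with dTAG13 in DE2 lies at 1793, 633 and 538 and with DMSO at 275, 143 and 379.6.

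**Figure D4:**
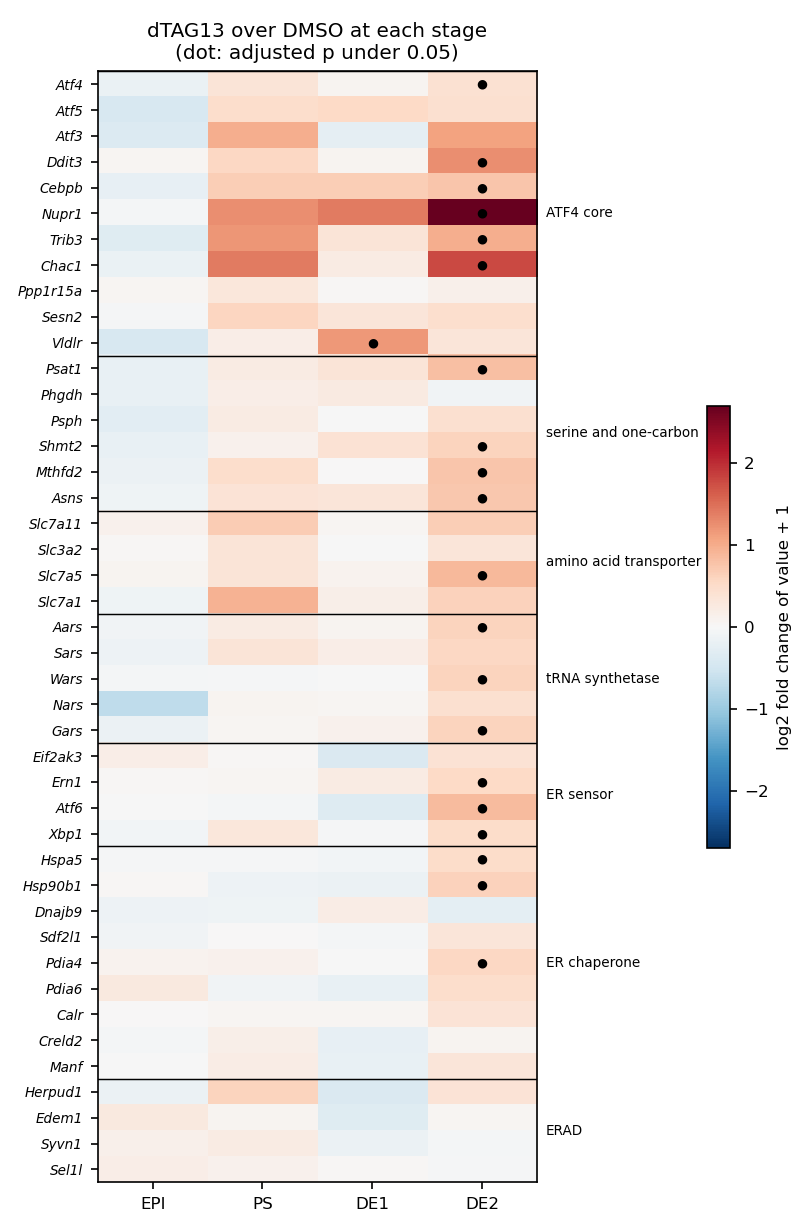
Log2 fold changes of dTAG13 over DMSO for the 43 genes (rows, grouped by role) at each stage (columns), with dots on genes called at an adjusted p under 0.05 in limma. Calls are 0 in EPI and PS, 1 in DE1 and 20 in DE2, and Nupr1 in DE2 has the largest value at 2.68.

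The change of the dTAG13 effect between stages was tested in the same fit. For DE2 minus DE1, 3 of 43 genes were called, all upward, against 5.95% of all genes, 2.92% upward and 3.03% downward. Of these Atf6 had the largest change, by 1.19 on the log2 scale (SE 0.22, adjusted p = 0.00225), and it was lower with dTAG13 in all 3 lines of DE1 and higher in all 3 lines of DE2. Eif2ak3 changed by 0.77 (adjusted p = 0.0337) and Wars by 0.61 (adjusted p = 0.0465). With the block 18 genes changed, 17 upward and Vldlr downward, and with equal totals 1. The share of all genes that changed is not given here for either setting. Without line 7H the count was 3, of which only Atf6 was among those called with all lines, and without line 7H1 or 7H2 it was 0. For PS minus EPI limma called no member with or without the block, and 10 had an unadjusted p under 0.05, with 0.0133% of all genes called, 0.00665% in each direction. For DE1 minus PS it called 0 without the block, 7 having an unadjusted p under 0.05, and 2 with it, Vldlr upward and Herpud1 downward. In that change 2.14% of all genes were called, 0.818% upward and 1.32% downward. Counts over all genes at the unadjusted threshold are not given here for these changes, so the 10 and the 7 stand without a base rate.

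Averaged over the 4 stages, 8 genes rose with dTAG13, while 10.4% of all genes were called, 4.95% upward and 5.45% downward, and all 8 were in the ATF4 arm. They were Nupr1, Chac1, Trib3, Cebpb, Slc7a1, Slc7a5, Sesn2 and Aars, with log2 fold changes of 1.32, 0.80, 0.55, 0.46, 0.40, 0.35, 0.33 and 0.20. The mean does not stand for a rise at every stage. In EPI, Chac1, Trib3, Cebpb, Slc7a1 and Aars were lower with dTAG13 in all 3 lines. Slc7a5 was higher there in all 3 lines, and Nupr1 and Sesn2 differed between lines. With the block 23 rose and with equal totals 13, and the share of all genes called is not given here for either setting. Without line 7H the count was 7, without line 7H1 it was 1, and without line 7H2 it was 0.

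Levels also varied between lines within a group, and many members of an arm varied together. Deviations of log2 values from the 8 group means were correlated over the 24 libraries, which leaves 16 degrees of freedom, as a description. Pearson's r had a median of 0.634 over the 325 pairs within the ATF4 arm, 0.527 over the 78 pairs within the chaperone arm and 0.346 over the 338 pairs between the arms. The closest pairs were Phgdh with Psph (0.97), Sars with Slc3a2 (0.957) and Asns with Slc3a2 (0.953). The most opposed pair was Sars with Syvn1 (-0.556), from different arms. Within the ATF4 arm Nars and Slc7a11 were also opposed (-0.462). No median over pairs of all genes is given here, so variation shared by all genes is not set apart. The means of the arms correlated at 0.568 (Spearman 0.554), at 0.487 without the 2 libraries farthest from the median of the chaperone arm, and at 0.342 without line 7H. In EPI line 7H1 was low in the ATF4 arm with both treatments, at deviations of -0.26 with dTAG13 and -0.28 with DMSO. In PS the same line was high in that arm, at 0.32 with dTAG13 and 0.13 with DMSO. Points share a library, a line and its total, so the r values describe these libraries alone.

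**Figure D5:**
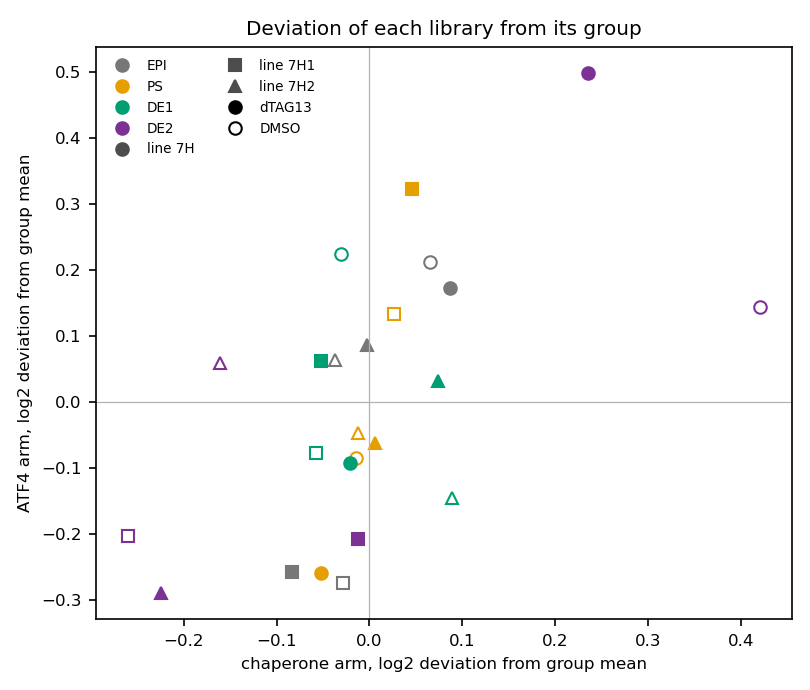
Deviation of the ATF4 arm mean (y axis, log2) against that of the chaperone arm mean (x axis, log2) from the group mean, 1 point per library of the 24, by stage, treatment and line. The 7H library of DE2 with dTAG13 is the highest on the y axis at 0.50, and that of DE2 with DMSO is the farthest right at 0.42.

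Further genes of the same pathways came from lists of other members. Of 33 other ATF4 targets tested, 1 rose and 23 fell in PS over EPI in DMSO, and of 38 other ER folding and secretory genes 18 rose and 2 fell, where 14.6% of all genes rose and 12.8% fell. In DE1 over PS they gave 4 rises and 9 falls, and 18 rises and 1 fall, where 21.7% of all genes rose and 22.4% fell. In DE2 over DE1 they gave 4 rises and 14 falls, and 0 rises and 17 falls, where 20.2% of all genes rose and 19.1% fell. With dTAG13 in DE2, 15 of the 33 other ATF4 targets rose and 1 fell, a share called of 48.5%, against 17% of all genes. Among them were Aldh18a1 of proline synthesis (log2 fold change 1.35), the synthetase genes Iars (0.79) and Cars (0.66), and the serine transporter gene Slc1a4 (1.03). The fall was that of Ndrg1 (-1.10). Of the 38 other ER genes 4 rose and 1 fell in DE2, a share of 13.2%, below that of all genes, with Hyou1, an ER chaperone, at 0.47 and the oxidase gene Ero1lb at 1.60. Of 15 genes of the eIF2 kinases and eIF2 machinery 4 rose (26.7%), among them Eif2ak4 (GCN2), the kinase that senses uncharged tRNA, at 0.38. Of 7 other ER-anchored factors 1 rose and 1 fell (28.6%).

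Other stress lists were read in the same comparison, DE2 with dTAG13, where 8.65% of all genes rose and 8.31% fell. Of 8 mitochondrial folding genes 4 rose and 0 fell, with Hspa9 at 0.56. Of 16 cytosolic heat shock genes 3 rose and 1 fell, Bag3 at -0.72. Of 15 p53 targets 2 rose and 1 fell, and of 9 NRF2 targets 3 rose and 0 fell. In DE1 with dTAG13, where 7.76% of all genes were called, 4 of 15 p53 targets rose and 1 fell, and 1 of 33 other ATF4 targets rose, Jdp2 (1.65). In EPI and PS with dTAG13 limma made no call in any of these 8 lists.

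Markers of cell identity moved in the same DE2 comparison. Of 6 epiblast markers 1 rose (Sox3) and 2 fell (Fgf5 and Pou3f1), with sums of 23421 to 30097 with dTAG13, against 40572 to 48369 with DMSO. Of 6 primitive streak markers Mixl1 and Wnt3 rose and Lhx1 fell. Their median log2 fold change was 1.40, while their sums were 15025 to 23226 with dTAG13, against 34977 to 54079 with DMSO, most of it Lhx1. Of 8 definitive endoderm markers 1 rose and 4 fell, and their summed values were 29537 to 36615 with dTAG13, against 41594 to 58442 with DMSO. Ttr, a visceral endoderm marker that did not pass the filter on low values, was listed at 0 in all 3 libraries with dTAG13. Of 7 visceral endoderm markers 5 were tested, of which 1 rose and 3 fell. The sums of the 7 were 10002 to 16712 with dTAG13, against 4185 to 6812 with DMSO. Apoe, which rose, made up nearly all of that sum, at 11054, 16329.8 and 9835 with dTAG13, against 4005, 6561 and 3925 with DMSO, while the falls were those of Apoa1, Amn and Cubn, and the median log2 fold change of the 5 was -3.33. Of the neural markers tested, 4 in all, 2 rose and 1 fell, with sums of 498 to 1613 with dTAG13, against 319 to 1146 with DMSO. Of 5 blood and endothelial markers tested limma called none, with sums of 154 to 412 with dTAG13, against 176 to 238 with DMSO. Of 7 mesoderm and fibroblast markers 2 fell, with sums of 1570.4 to 2434 with dTAG13, against 2223 to 3915 with DMSO. Whether these shifts have a part in the rise of the stress genes was not tested.

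Some members share positions with other genes, and the sources used here do not give the strand setting of the counting. Cebpb overlaps Tmem189, Slc7a5 overlaps Gm20388, Wars overlaps Wdr25, Ddit3 overlaps Mars by 68 bases, Syvn1 overlaps Mrpl49 and Manf overlaps Dcaf1 and Rbm15b. Values of these members are uncertain to that extent.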

How the data were processed

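The authors deposited normalised read counts per gene, a signal that is not whole numbers, for 24 polyA libraries, made with DESeq2 on build mm10, per the submitters' processing notes, which name no version. The aligner, the counting tool, the annotation and the strand were not given in the sources used here. Whole reads could not be recovered from low values (58.5 to 72% of those under 6 were within 0.1 of a whole multiple), so no count model was used. The members and all gene lists were chosen with earlier results of these data known. Groups came from the labels.

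Values were tested as log2(value + 1) with limma 3.58.1 (R 4.3.3, statmod 1.5.0), intensity trend and robust empirical Bayes, over all 24 libraries in 8 groups (16 residual degrees of freedom, median total 21, spread pooled over groups). A gene entered with a value of at least 10 in 3 or more libraries, which left 15037, and p-values were two-sided and Benjamini-Hochberg adjusted over them. The log2 fold change understates the change of low genes. The replicate number is the cell line, per the labels, so it pairs samples. Deviations correlated at 0.0703 to 0.381 between treatments of a line, the own line highest in 12 of 12. The fit without the line term is reported and the line block is an alternative, as are pseudocount 5, no filter, equal totals, quantile normalization, leaving out each line and single-stage fits. Comparisons between successive stages share the middle stage. The fit was tried on simulated data for dTAG13 over DMSO in DE1. There 23.9% of 67 genes given a log2 change of 0.5 were called. The share was 70.1% of 67 genes at a change of 1 and 97% of 66 at 2. Of 137 calls 10 were on genes given no change. A gene that was not called may thus still have changed. Recovery in the other comparisons is not given here. Gene coordinates are from GENCODE M21 (GRCm38). Missing names numbered 71, and 1 was filled. Genes named with full values for dTAG13 were drawn from those called, or from the smallest p where few were called. For DMSO steps they were drawn from the largest rises and falls among called members with a mean of at least 50 over both groups. Others named in a sentence, some with full values, were chosen by role after their values were seen. Python 3.11.15 (pandas 2.3.3, numpy 2.4.6, matplotlib 3.10.9) was used for tables and plots.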

Additional observations from a re-analysis of the deposited data

Results flagged for a closer look

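The dTAG13 effect of 3 genes differed between DE2 and DE1 by a test of the difference itself, 3 of 43 or 6.98%, near the 5.95% of all genes. In limma the effect in DE2 exceeded that in DE1 by 1.19 on the log2 scale for Atf6, by 0.77 for Eif2ak3 and by 0.61 for Wars. Per line, Atf6 had log2 fold changes of 0.89, 0.81 and 0.84 in DE2 and of -0.18, -0.27 and -0.57 in DE1. Eif2ak3 had 0.11, 0.44 and 0.63 in DE2 and -0.42, -0.09 and -0.63 in DE1. Wars had 0.77, 0.59 and 0.45 in DE2 and -0.04, 0.06 and -0.02 in DE1. None of the 3 was called without line 7H1 or without line 7H2, and without line 7H only Atf6 was. Wars was also not called with no filter, with equal totals and with quantile normalization, and Eif2ak3 with equal totals.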

How the results depend on the processing

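Alternatives for single genes were counted for genes chosen as called in a comparison or, where few were called, by the smallest p. Of these, 564 values kept direction and side of the threshold, 98 lost the call, 10 gained it and none reversed. Members outside that choice could reverse. In DE2 with dTAG13 the log2 fold changes of Vldlr and Slc7a11 were -0.05 and -0.09 without line 7H, and positive with all lines. With the line as a replicate block the count of called members was 6 in PS, 9 in DE1, 32 in DE2, 23 for the mean of 4 stages, 2 for the change DE1 minus PS and 18 for the change DE2 minus DE1, against 0, 1, 20, 8, 0 and 3. It moved no other count of called members by over 1.5 times, but within PS minus EPI it called 2 sensors, against 0. Fitted on its own stage, DE1 gave 9 and DE2 8. Equal totals gave 13 for the mean and 1 for the change DE2 minus DE1. Leaving out each line gave 0 to 2 calls in DE1, 7 to 11 in DE2, 0 to 7 for the mean, 15 to 26 for PS minus EPI, 7 to 17 for DE1 minus PS, 10 to 18 for DE2 minus DE1 and 0 to 3 for the change DE2 minus DE1. Chosen after seeing the data, leaving out single DE2 libraries gave 8 to 26 calls, lowest without the 7H library with dTAG13 and without the 7H1 library with DMSO. The correlation of the arm means was 0.342 to 0.635 without a line. The cause of these shifts was not tested. Shares of all genes called are not given here for the block or for fits with lines or libraries left out. Over all genes, equal totals turned PS minus EPI to 1693 rises and 2360 falls, against 2200 and 1932, and the dTAG13 effect in DE1 to 733 and 490, against 562 and 605. Quantile normalization put the median log2 fold change of all genes in DE2 minus EPI at -0.11, against 0.00368, and the split at 3649 rises and 4688 falls, against 4113 and 3997. Read depth is unknown beyond the deposited totals, and 3 lines a group limit the precision.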
